A study of Mus musculus with 91 samples.

Results

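The liver arrays of 20 weeks of feeding set 3 arrays of mice on the high-fat diet (HFD) against 3 arrays of mice on the normal diet (ND). They were chosen by their labelled tissue, diet and week, and are 6 of the 51 liver arrays and of the 91 arrays of the series, the others of which came from liver at other weeks and from visceral fat. Male C57BL/6J mice, an inbred strain that becomes obese on a fatty diet, were fed from 5 weeks of age. The HFD was rich in fat and cholesterol, and the ND was the purified AIN-76 diet. At 20 weeks of diet both groups were 25 weeks old, and they shared strain, sex, age and a fast before the livers were taken, so that the diet was the labelled difference. Whether a liver array holds RNA of 1 mouse or of a pool is not given in the sources used here. A p-value rests on the spread between replicate arrays pooled over all 51 liver arrays, not on the 6 alone. This spread may be technical.

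The liver takes up cholesterol and fat, makes both, and exports them in lipoproteins and bile. When hepatocytes hold much sterol, the membrane-bound transcription factors called SREBPs are kept from the nucleus and the genes of cholesterol synthesis are transcribed less, while the oxysterol receptors LXR turn on the export of sterol. Fasting engages another receptor, PPAR-alpha, whose targets burn fatty acids and whose product FGF21 is a hormone of the fasted state. Fat that is neither burned nor exported is kept in lipid droplets coated by perilipin and CIDE proteins, and a fatty liver can also gather macrophages and matrix.

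RNA was hybridized to Illumina MouseWG-6 v2 BeadChips with 45281 probes, and the values are log2 signals that were quantile normalized over all liver arrays, with an array median of 7.04 and a highest value of 15.98. Replicate arrays correlated with each other at 0.994 to 0.995 on the ND and at 0.995 on the HFD, and arrays of different diets at 0.989 to 0.992. The replicate arrays of the other 15 liver groups correlated at 0.972 to 0.997. The HFD arrays of 16 weeks were the lowest, with mean correlations of 0.973, 0.984 and 0.984 with their group. The labelled tissue was checked on its markers. The mean over the 12 hepatocyte genes measured was 12.92 to 13 on the ND arrays and 12.92 to 12.94 on the HFD arrays. The 95th percentile of an array was 10.94, and skeletal muscle markers had means of 6.94 to 7. Transthyretin (Ttr) was at 15.66 on both diets. Each of the 12 lay above the array median on at least 1 of the 6 arrays, but so did all 14 endothelial markers, so that this alone does not mark hepatocytes. HFD and ND were compared with limma in a model of all 51 liver arrays, and p-values were adjusted over all probes by the Benjamini-Hochberg method. A probe is called HFD-responsive where its adjusted p was under 0.05 and its log2 fold change beyond 1 in size, which is a fold of 2, and a gene is said to have risen or fallen at an adjusted p under 0.05. The limma p-values of these fits are printed as adjusted p. An exact permutation test of 3 arrays against 3 cannot give a two-sided p under 0.1 and was not used.

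On the HFD 61 probes were called higher (0.135% of the probes tested) and 37 lower (0.0817%), 98 in all (0.216%). They stood for 48 and 29 distinct gene symbols, and 11 called probes had no symbol in the array annotation. The median absolute log2 fold change of the called probes was 1.26, and 26 of them changed by more than 1.5. Of the called probes 97 had no overlap between the 3 arrays of each diet, against 17.7% of all probes (8.99% with the HFD higher and 8.73% with it lower), and the exception was Hspa1a. Without the size threshold 803 probes rose (1.77%) and 458 fell (1.01%), together 2.78%. The largest change of all was on probe ILMN_2835423, which carries no gene name in the annotation. Its log2 signals were 9.33, 8.66 and 9.39 on the ND and 13.90, 14.06 and 14.06 on the HFD, a rise of 4.88 (adjusted p = 2.97e-15).

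**Figure D1:**
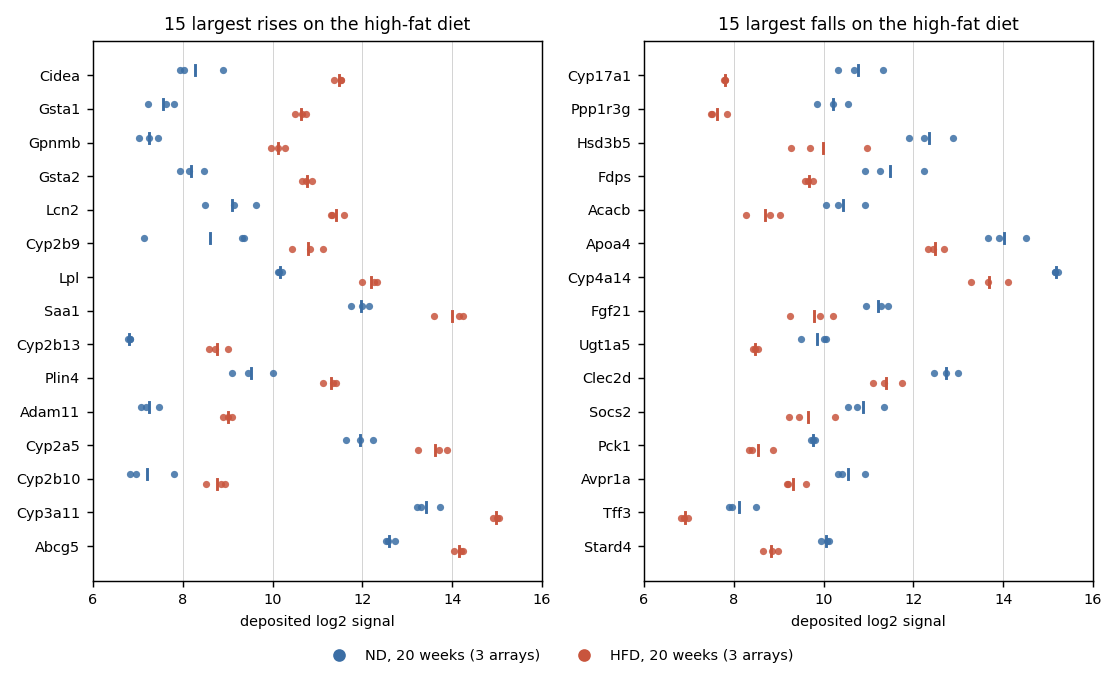
Log2 signal of the 15 named genes with the largest rises (left) and falls (right) on the HFD at 20 weeks, with a point for each array, a short line at the mean of 3 arrays, ND in blue and HFD in red. The genes were chosen among probes whose diets do not overlap, so that the lack of overlap is not a result. Cyp2b9, Hsd3b5 and Fdps have the widest spread between arrays.

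The enzymes of cholesterol synthesis were lower on the HFD. Of 20 genes of the pathway 15 were measured, and 9 fell, 0 rose and 6 did not pass the test (0 higher and 11 lower at an unadjusted p under 0.05), with a list median of -0.63 on the log2 scale. Over all symbols, each on its brightest probe, 2.79% rose and 1.41% fell, and the median was 0. At an unadjusted p under 0.05 in limma, 5622 of the 45281 probes differed between diets in either direction. The unadjusted counts of this and the later lists are to be read beside that share. The genes that fell span the pathway, from Pmvk, a kinase of the mevalonate steps, over Fdps and Sqle to the late enzymes Cyp51, Tm7sf2, Msmo1, Nsdhl, Hsd17b7 and Dhcr7.

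Fdps, which makes farnesyl diphosphate, the last precursor shared by sterols and other isoprenoids, had log2 signals of 12.24, 10.93 and 11.25 on the ND and 9.59, 9.77 and 9.66 on the HFD. The 3 HFD arrays lay close together, and the first ND array was the highest. The lack of overlap between diets was part of the rule that named Fdps. The log2 fold change was -1.80 (SE 0.215, adjusted p = 2.08e-07). Sqle, the squalene epoxidase, also had its highest value on the first ND array, with 9.03, 7.73 and 8.16 on the ND against 7.30, 7.22 and 7.02 on the HFD (log2 fold change -1.13, adjusted p = 0.000101). Without the first ND array the list still had a median below 0, but 6 of its genes fell in place of 9.

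Tm7sf2, a sterol reductase of the late pathway, varied little between arrays. It was at 9.12, 8.95 and 9.17 on the ND and at 7.97, 7.94 and 7.98 on the HFD. The diets were apart by -1.11 (SE 0.0982, adjusted p = 1.64e-10), and this fall was of like size at the other weeks, from -0.76 at 6 weeks to -1.21 at 16 weeks. Cyp51, the lanosterol demethylase, fell by 0.90 (adjusted p = 0.0001), and Hsd17b7, a late keto-sterol reductase, by 0.74 (adjusted p = 1.06e-06). Lss, which closes the sterol rings, had a log2 fold change of -0.29 (adjusted p = 0.0638), and Ebp, a sterol isomerase, one of 0.01 (adjusted p = 0.986).

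The promoters of 3 late enzymes that fell are shown because sterol-regulated genes often carry a sterol element next to a CCAAT box, the site of the factor NF-Y. They are the 250 bases before the annotated start, 5′ to 3′ on the minus strand, from RefSeq on GRCm38.p6, at chr19:6067851-6068100 for Tm7sf2, chr5:4104698-4104947 for Cyp51 and chr1:169969206-169969455 for Hsd17b7. Capitals mark CCAAT on either strand (ATTGG where it lies on the other) and the letters TCACCTCA, a variant of the sterol element that was picked after these promoters had been read.
Tm7sf2: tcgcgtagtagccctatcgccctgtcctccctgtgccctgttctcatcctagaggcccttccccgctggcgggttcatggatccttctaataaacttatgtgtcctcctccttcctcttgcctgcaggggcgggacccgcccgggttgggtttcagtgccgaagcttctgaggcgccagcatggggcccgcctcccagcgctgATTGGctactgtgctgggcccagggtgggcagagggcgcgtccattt
Cyp51: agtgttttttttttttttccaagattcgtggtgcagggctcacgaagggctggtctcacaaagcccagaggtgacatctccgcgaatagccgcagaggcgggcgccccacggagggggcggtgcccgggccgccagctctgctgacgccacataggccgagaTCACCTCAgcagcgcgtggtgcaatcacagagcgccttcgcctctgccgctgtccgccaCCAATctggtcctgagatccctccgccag
Hsd17b7: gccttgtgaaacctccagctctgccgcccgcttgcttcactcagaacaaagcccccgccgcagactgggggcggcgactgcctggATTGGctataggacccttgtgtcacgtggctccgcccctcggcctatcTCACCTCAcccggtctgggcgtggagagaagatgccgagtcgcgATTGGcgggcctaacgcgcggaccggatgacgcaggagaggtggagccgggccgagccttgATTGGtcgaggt
Tm7sf2 and Cyp51 held CCAAT 1 time each and Hsd17b7 3 times, and the letters TCACCTCA stood in Cyp51 and Hsd17b7. The search used windows of 300 bases, 250 before and 50 after the start, on both strands. Among the 9 sterol genes that fell, 7 had a promoter in the table, and 6 of these (85.7%) held CCAAT, as did 6 of the 6 sterol genes that did not pass the test and 37.9% of all 27025 promoters. TCACCTCA was in 2 of the 7 (28.6%), in 0 of the 6 and in 1.16% of all promoters. The sterol element of the form TCACNCCAC was in 0 of the 7 and in 1.22% of all promoters. A match of letters is a description of the window only.

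Few of the genes that sense or move sterol passed, and those that did went in both directions. Stard4, which carries cholesterol between membranes inside the cell, was at 10.08, 9.94 and 10.12 on the ND and at 8.98, 8.66 and 8.86 on the HFD. Its log2 fold change was -1.21 (adjusted p = 6.79e-05). Insig1, which holds SREBPs in the endoplasmic reticulum, fell by 0.53 (adjusted p = 0.00376). The other 9 of 11 genes of sterol uptake and sensing did not pass, among them the transcription factor Srebf2 itself (-0.09, adjusted p = 0.799).

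The genes of a sterol export pump ran the other way. Abcg5 and Abcg8, partners in the pump that puts cholesterol into bile, both rose. Abcg5 was at 12.72, 12.56 and 12.52 on the ND and at 14.04, 14.20 and 14.23 on the HFD, a log2 fold change of 1.55 (SE 0.135, adjusted p = 1.15e-10). Abcg8 was at 12.04, 11.82 and 11.86 against 13.10, 13.29 and 13.45, a log2 fold change of 1.37 (adjusted p = 7.21e-06). In both genes the arrays of a diet spread far less than the gap between diets, though for Abcg5 the lack of overlap was part of the rule that named it. Of the 8 genes of sterol efflux and LXR targets measured, these 2 rose, Pltp, a phospholipid transfer protein of plasma, fell by 0.75 (adjusted p = 0.000467), and 5 did not pass, with Abca1 at 0.10 (adjusted p = 0.542).

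Bile acids are the other outlet for cholesterol. Cyp7a1, the rate-limiting enzyme of bile acid synthesis, had a log2 fold change of 0.38 that did not pass (adjusted p = 0.67). Cyp8b1, which makes the 12-hydroxylated bile acids, fell from 15.83, 15.41 and 15.60 on the ND to 14.83, 15.04 and 14.93 on the HFD, by 0.68 (adjusted p = 1.85e-05). Cyp7b1 of the alternative pathway fell by 0.83 (adjusted p = 0.0186), and Hsd3b7, which acts after the hydroxylases, rose by 0.30 (adjusted p = 0.0317). Among the transporters, Abcc3 and Abcc4, which export bile acids back to blood, rose by 0.81 (adjusted p = 8.34e-06) and 0.61 (adjusted p = 0.000138). The uptake transporter Slc10a1 fell by 0.62 (adjusted p = 0.000112). Thus 1 of 12 synthesis genes rose and 2 fell, and 2 of 12 genes of bile acid transport and sensing rose and 1 fell. Among the synthesis genes 0 rose without any array but the second ND array, and 1 fell without the third ND array or the first or the third HFD array.

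**Figure D2:**
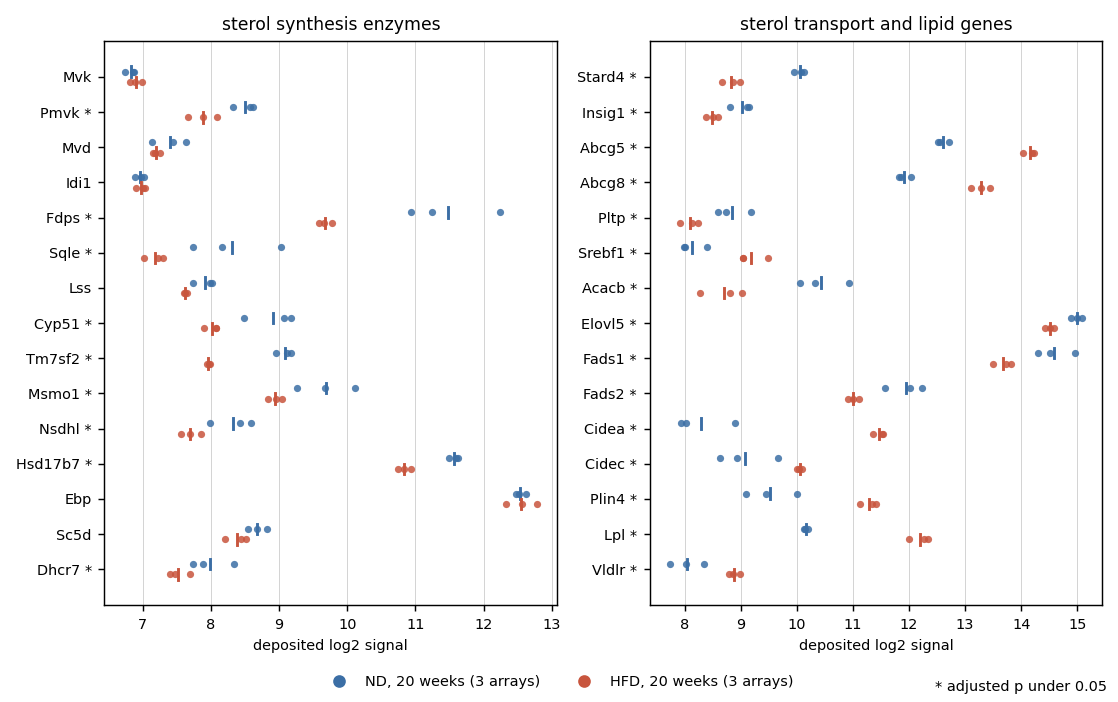
Log2 signal per array of the 15 measured sterol synthesis enzymes (left) and of 15 genes of sterol transport and lipid metabolism (right) at 20 weeks, ND in blue and HFD in red, short lines at the means, with an asterisk at an adjusted p under 0.05. The sterol enzymes with an asterisk lie lower on the HFD, while Abcg5, Abcg8, Cidea, Plin4 and Lpl lie higher.

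Proteins of the lipid droplet gave the largest rise among the named genes. Cidea, which fuses lipid droplets and is best known from brown fat, was at 8.90, 7.93 and 8.02 on the ND and at 11.52, 11.53 and 11.36 on the HFD. The HFD arrays agreed to within 0.0963 (SD) and the ND arrays to within 0.536. The lack of overlap between diets was part of the rule that named Cidea. The log2 fold change was 3.19 (SE 0.21, adjusted p = 4.33e-14), which is 9.11-fold. Plin4, a perilipin of nascent droplets, was at 10.01, 9.10 and 9.45 on the ND and at 11.34, 11.12 and 11.41 on the HFD (log2 fold change 1.77, adjusted p = 3.01e-07). Cidec, a relative of Cidea that also fuses droplets, rose by 0.97 (adjusted p = 0.016), with the first ND array at 9.67 nearest to the HFD arrays of 10.09, 10.01 and 10.04.

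Other droplet genes were lower or did not pass. G0s2, an inhibitor of the triglyceride lipase Pnpla2, fell by 0.85 (adjusted p = 0.0158), and Mgll, the monoglyceride lipase, by 0.64 (adjusted p = 0.00822). Plin2, the perilipin that coats most liver droplets, was at -0.14 (adjusted p = 0.753). Of the 16 genes measured 3 rose, 2 fell and 11 did not pass, and 1 fell without the first or the third ND array or the second HFD array and 0 without the third HFD array. Of 12 genes of triglyceride synthesis none passed in limma (3 higher and 3 lower at an unadjusted p under 0.05), with Dgat2, which adds the last fatty acid, at 0.33 (adjusted p = 0.0872). In a limma fit of the 6 arrays alone, whose share over all genes is not given here, 3 of the 12 rose and 3 fell.

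Lpl, the lipoprotein lipase that frees fatty acids from circulating triglyceride and is low in the adult liver, was at 10.13, 10.20 and 10.14 on the ND and at 12.00, 12.33 and 12.26 on the HFD. The log2 fold change was 2.04 (SE 0.136, adjusted p = 5.07e-14), and the lack of overlap between diets was part of the rule that named Lpl. A dimmer Lpl probe, ILMN_2585447, lay below the array median and had a difference of 0.02. The lipoprotein receptor Vldlr rose by 0.84 (adjusted p = 0.00145). Fabp5, a fatty acid carrier, and Acsl5, which activates fatty acids, fell by 0.54 (adjusted p = 0.041) and 0.40 (adjusted p = 0.03), so that 2 of 13 uptake genes rose and 2 fell. None fell without the first or the second ND array or the second or the third HFD array, and 1 fell without the first HFD array. The fatty acid translocase Cd36 was measured at 6.81 on the ND, under the array median on that diet, with a difference of -0.02.

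In fatty acid synthesis the regulator and its enzymes differed. Srebf1, the gene of the SREBP of fatty acid synthesis and itself an LXR target, was at 8.40, 7.99 and 8.00 on the ND and at 9.04, 9.04 and 9.49 on the HFD, a rise of 1.06 (adjusted p = 7.91e-05). Acacb, the acetyl-CoA carboxylase at the mitochondrion whose malonyl-CoA holds back fat oxidation, was at 10.92, 10.06 and 10.32 against 9.02, 8.27 and 8.80. Its log2 fold change was -1.74 (adjusted p = 4.44e-07). The desaturases Fads1 and Fads2, which make polyunsaturated fatty acids, fell by 0.90 (adjusted p = 1.33e-05) and 0.93 (adjusted p = 0.000113), and the elongase Elovl5 by 0.48 (adjusted p = 0.00112). Of 16 genes 1 rose, 4 fell and 11 did not pass, including Fasn (0.03, adjusted p = 0.961) and Scd1 (0.16, adjusted p = 0.414).

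Targets of PPAR-alpha were lower. Of 19 measured genes 7 fell and 0 rose (11 lower and 0 higher at an unadjusted p under 0.05 in limma), with a median of -0.38. Cyp4a14, which hydroxylates the end of fatty acids, was at 15.22, 15.15 and 15.15 on the ND and at 14.11, 13.67 and 13.28 on the HFD, a log2 fold change of -1.48 (adjusted p = 5.77e-06). The ND values lie near the top of the scale. Fgf21 was at 11.27, 10.94 and 11.43 on the ND and at 10.20, 9.92 and 9.25 on the HFD (log2 fold change -1.42, SE 0.287, adjusted p = 0.00167). The third HFD array was the lowest for both genes. The thioesterases Acot1 and Acot3 fell by 1.07 (adjusted p = 0.000764) and 1.10 (adjusted p = 0.0113). Pdk4, which spares glucose in fasting, was at -0.75 and did not pass (adjusted p = 0.0683).

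Mitochondrial fatty acid oxidation and ketogenesis moved in the same direction at a smaller size, with 4 of 14 genes lower and 0 higher (5 and 0 unadjusted in limma) and a median of -0.14. They were Cpt1a, the gate for long-chain fatty acids (-0.40, adjusted p = 0.0317), Acadl, Hadha and Hadhb. Without the first ND array or the first or the third HFD array 1 gene of the list fell, and without the third ND array or the second HFD array 2 fell. Of 24 respiratory chain subunits 21 had a difference below 0, at a median of -0.18, and only Sdhd fell (-0.49, adjusted p = 0.0139). None fell without the second ND array or the second or the third HFD array. In a limma fit of the 6 arrays alone, whose share over all genes is not given here, 7 fell.

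Genes of the fasted liver's glucose output were lower as well. Pck1, the rate-setting enzyme of gluconeogenesis, was at 9.72, 9.76 and 9.81 on the ND and at 8.33, 8.87 and 8.41 on the HFD (log2 fold change -1.23, SE 0.149, adjusted p = 2.69e-07), and its other called probe fell by 1.2. G6pc, which releases glucose, was at 13.93, 13.89 and 14.23 against 13.09, 13.86 and 12.92. The second HFD array nearly reached the ND arrays, and the log2 fold change of -0.73 had an adjusted p of 0.0422. Fbp1 and the insulin receptor substrate Irs2 also fell, so that 4 of 20 genes of glucose metabolism and insulin signalling fell and 0 rose (7 lower and 2 higher unadjusted in limma), and 2 fell without the third ND array or the first HFD array and 1 without the third HFD array.

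Ppp1r3g, which brings protein phosphatase 1 to glycogen and promotes glycogen synthesis in liver, was at 9.85, 10.21 and 10.55 on the ND and at 7.49, 7.85 and 7.52 on the HFD. The lack of overlap between diets was part of the rule that named it. The log2 fold change of -2.58 (SE 0.342, adjusted p = 1.66e-06) was the second largest fall among the named genes. A dimmer probe of Ppp1r3g, ILMN_2524058, differed by -0.29 (adjusted p = 0.0522).

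Among the apolipoproteins, Apoa4, made by liver and intestine and found on triglyceride-rich particles, fell on each of its 3 probes, by 1.54, 1.32 and 1.25. On the probe with the largest fall the log2 signals were 14.51, 13.65 and 13.90 on the ND and 12.69, 12.43 and 12.32 on the HFD (adjusted p = 5.34e-06). Apom, the carrier of sphingosine phosphate on HDL, fell by 0.92 (adjusted p = 0.00023). The other 11 of 13 apolipoproteins did not pass.

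**Figure D3:**
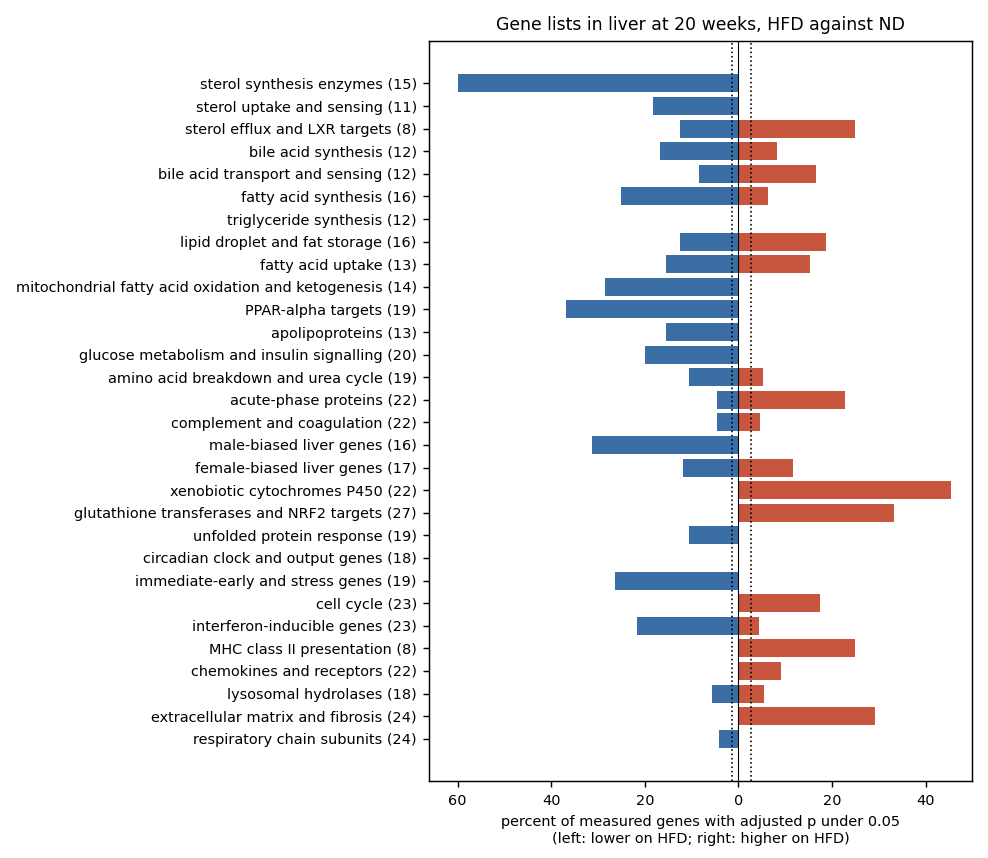
Percent of the measured genes of each pathway list, with their number in parentheses, that rose (red, to the right) or fell (blue, to the left) on the HFD at 20 weeks at an adjusted p under 0.05. Dotted lines mark 2.79% higher and 1.41% lower over all symbols, and the longest bars are sterol synthesis to the left and xenobiotic P450s to the right.

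Drug-metabolising enzymes were the list with the largest share of rises. Of 22 cytochromes P450 of xenobiotic metabolism measured 10 rose and 0 fell (13 and 1 unadjusted in limma), at a median of 0.40. Cyp2a5, the coumarin hydroxylase, was called on 5 probes with log2 fold changes of 1.18 to 1.67. On the probe with the largest rise the log2 signals were 12.23, 11.95 and 11.63 on the ND and 13.23, 13.70 and 13.89 on the HFD (adjusted p = 5.57e-07). Cyp3a11, a main target of the xenobiotic receptor PXR, was at 13.73, 13.22 and 13.31 against 14.90, 15.03 and 15 (log2 fold change 1.56, adjusted p = 1.66e-06). Cyp2b10, a main target of the receptor CAR, was near the array median on the ND at 6.95, 7.81 and 6.83 and reached 8.51, 8.85 and 8.95 on the HFD (log2 fold change 1.57, adjusted p = 0.000222). For each of these 3 genes the lack of overlap between diets was part of the rule that named it. Cyp2c70, which makes muricholic acids in mice, rose by 1.23 (adjusted p = 1.15e-07). Cyp2e1, the ethanol-inducible enzyme, was at 15.73 on the ND, close to the top of the scale, and differed by 0.02 (adjusted p = 0.932).

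Among glutathione transferases and NRF2 targets, the genes of conjugation and of the antioxidant response, 9 of 27 rose and 0 fell (13 and 1 unadjusted in limma), at a median of 0.20. Gsta1 was at 7.62, 7.80 and 7.23 on the ND and at 10.50, 10.75 and 10.66 on the HFD, a log2 fold change of 3.08 (SE 0.349, adjusted p = 6.98e-08), and 2 further probes of Gsta1 rose by 3.02 and 2.10. Gsta2 was at 7.94, 8.48 and 8.13 against 10.66, 10.88 and 10.74 (log2 fold change 2.58, adjusted p = 3.68e-12). Both are alpha-class enzymes that conjugate lipid peroxidation products, and the lack of overlap between diets was part of the rule that named them. Gstm1 rose by 1.04 (adjusted p = 2.47e-07). The NRF2 targets Nqo1, Gclm and Srxn1, which belong to the antioxidant response, rose by 0.43, 0.34 and 0.38. Gsta1 and Gsta2, Cyp2a5 and its neighbours, and the members of Cyp2b are close copies, so that a probe may also read a related gene. Without the first ND array, the second HFD array or the third HFD array, 6, 6 and 5 of the genes of this list rose.

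Genes that differ between male and female mouse liver changed in both lists. Hsd3b5, a steroid reductase of male liver under growth hormone control, was at 11.91, 12.23 and 12.88 on the ND and at 9.27, 10.97 and 9.69 on the HFD. The third ND array was the highest, the second HFD array lay between the others of both diets, and the log2 fold change of -2.37 (SE 0.472) had an adjusted p of 0.00146. Of 16 male-biased genes measured 5 fell and 0 rose (8 and 0 unadjusted in limma), with Cyp4a12a, Cyp4a12b, Elovl3 and Cyp7b1 between -0.82 and -0.97. Without the third ND array or the third HFD array 3 of them fell.

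Cyp2b13 and Cyp2b9 are P450s of female liver that were nonetheless higher in these male livers. Cyp2b13 was at 6.83, 6.77 and 6.83 on the ND, under the array median, and at 8.59, 9.00 and 8.71 on the HFD (log2 fold change 1.96, SE 0.266, adjusted p = 2.66e-06). Cyp2b9 was at 9.31, 9.36 and 7.14 on the ND and at 10.44, 11.12 and 10.83 on the HFD. The third ND array was much lower than the other ND arrays, and the log2 fold change of 2.19 (adjusted p = 0.00219) became 1.46 (adjusted p = 0.0852) without it.

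Cyp17a1, a steroid hydroxylase that in mouse liver is also female-biased, went the other way and gave the largest fall. It was at 11.33, 10.31 and 10.68 on the ND and at 7.79, 7.81 and 7.80 on the HFD. The HFD arrays spread by 0.00931 (SD), and the log2 fold change was -2.97 (SE 0.249, adjusted p = 4.37e-11). The lack of overlap between diets was part of the rule that named Cyp17a1. It fell at each week, by 2.34 to 2.98. Of 17 female-biased genes measured 2 rose and 2 fell, at a median of 0, with 1 rise without the third ND array and 1 fall without the first ND array or the first HFD array, and 8 lay under the array median on all 6 arrays. Socs2, a growth hormone target that damps its signal, was at 10.75, 10.55 and 11.34 against 10.26, 9.46 and 9.22. Its log2 fold change of -1.24 (adjusted p = 0.0342) did not pass without the first or the third ND array or the second or the third HFD array (adjusted p = 0.0621, 0.224, 0.146 and 0.226).

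Acute-phase genes, which the liver secretes in inflammation, rose in 5 of 22 cases and fell in 1. Lcn2, a siderophore-binding lipocalin, was at 9.13, 8.50 and 9.64 on the ND and at 11.33, 11.29 and 11.60 on the HFD (log2 fold change 2.32, SE 0.44, adjusted p = 0.000753). Saa1, a serum amyloid, was at 12.00, 11.75 and 12.15 against 14.14, 13.60 and 14.24 (log2 fold change 2.03, adjusted p = 0.00421), while a dimmer Saa1 probe, ILMN_2826869, did not pass (0.31, adjusted p = 0.759). For Lcn2 and the brighter Saa1 probe the lack of overlap between diets was part of the rule that named them. Saa3 rose by 1.46 (adjusted p = 0.00297), Orm2 by 1.46 (adjusted p = 0.00121) and Saa4 by 0.97 (adjusted p = 0.000263). Apcs, the serum amyloid P component, fell by 0.66 (adjusted p = 0.00266), and the C-reactive protein Crp was at -0.09 (adjusted p = 0.776).

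Macrophage genes were higher, though not all of them. Of 14 markers of recruited and lipid-associated macrophages 5 rose and 1 fell, at a median of 0.40. The fall was that of Fabp5, and 0 fell without any array but the third ND array. Gpnmb, a glycoprotein of lipid-laden macrophages, was at 7.46, 7.24 and 7.02 on the ND and at 10.12, 10.28 and 9.97 on the HFD (log2 fold change 2.88, SE 0.357, adjusted p = 4.25e-07). The ND arrays lay near the array median, and 3 further Gpnmb probes, dimmer still, differed by 0.03, 0.52 and 0.01. Lgals3, galectin-3, rose by 1.34 (adjusted p = 0.0013), Mmp12 by 0.96, Clec7a by 0.63 and Trem2, a lipid-sensing receptor, by 0.54 (adjusted p = 0.00551).

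Among 14 markers of Kupffer cells, the resident macrophages of the liver, Vsig4, Adgre1 and C1qb rose by 0.72, 0.70 and 0.90, and the scavenger receptor Cd163 fell by 0.82 (adjusted p = 6.3e-05). In whole liver, fewer cells of a type and less RNA per cell cannot be told apart. The mean over the 14 Kupffer genes was 9.41 to 9.54 on the ND arrays and 9.75 to 9.87 on the HFD arrays, and that over the recruited macrophage genes 7.88 to 8.06 and 8.39 to 8.52. Such a separation was not particular to macrophages. Stellate cell means were 8.72 to 8.78 and 8.91 to 8.93, and endothelial means 9.1 to 9.2 and 9.29 to 9.32. Even skeletal muscle means did not overlap (6.94 to 6.97 and 6.99 to 7), while hepatocyte means did. The antigen presentation genes Cd74 and H2-Eb1 rose by 1.00 (adjusted p = 0.0159) and 0.99 (adjusted p = 0.0299), as 2 of 8 MHC class II genes on their brightest probes, whose median was 0.63. H2-Ab1, a chain of a class II molecule, was called on a dimmer probe, ILMN_2631423, by 1.14 (adjusted p = 0.00253), while its brightest probe was at 0.90 (adjusted p = 0.0681). Without the second or the third ND array or the third HFD array 0 of the 8 brightest probes passed in limma and without the first or the second HFD array 1 (6 higher at an unadjusted p under 0.05 with all arrays). In a limma fit of the 6 arrays of this comparison alone, whose share over all genes is not given here, 6 of the 8 rose. The chemokines Ccl3 and Ccl4 rose by 0.52 and 1.16, and the other 20 of 22 chemokine genes did not pass, with Ccl2 at 0.19 (adjusted p = 0.51). Without the third HFD array 1 chemokine gene rose.

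Interferon-inducible genes changed in both directions. Of 23 measured 5 fell and 1 rose, and 3 fell without the second or the third ND array or the second HFD array. Usp18, which restrains interferon signalling, was at 11.11, 10.88 and 11.08 on the ND and at 9.88, 9.81 and 10.11 on the HFD, a log2 fold change of -1.09 (adjusted p = 1.69e-08). Rsad2, an antiviral enzyme, fell by 0.63 (adjusted p = 0.00589), and Isg15, Oasl1 and Mx2 by 0.65, 0.46 and 0.44. Ubd, a ubiquitin-like protein induced by cytokines, rose by 1.19 (adjusted p = 0.0429), a call that was lost without any of the 6 arrays in turn. Cxcl9, a chemokine induced by interferon-gamma, was at 1.45 and did not pass (adjusted p = 0.0558).

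Of 24 genes of the extracellular matrix 7 rose and 0 fell (15 and 1 unadjusted in limma), at a median of 0.30. Mmp12, an elastase of macrophages, was at 6.99, 6.90 and 6.90 on the ND and at 7.84, 7.86 and 7.98 on the HFD, a rise of 0.96 (adjusted p = 1.88e-06) from under the array median. Timp1, an inhibitor of matrix proteases, rose by 0.64 (adjusted p = 0.0172), Sparc by 0.65 (adjusted p = 0.0036), and the collagens Col4a2 and Col3a1 by 0.49 and 0.29. Col1a1, the main fibrillar collagen gene of scars, was at 0.18 (adjusted p = 0.52). This count rests on small changes, since 2 genes rose without the second ND array or the third HFD array and 4 without the first HFD array. Of 14 stellate cell markers 3 rose, all below 0.5 on the log2 scale, with 0 rises without the second ND array or the third HFD array and 1 without the third ND array or the first HFD array.

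**Figure D4:**
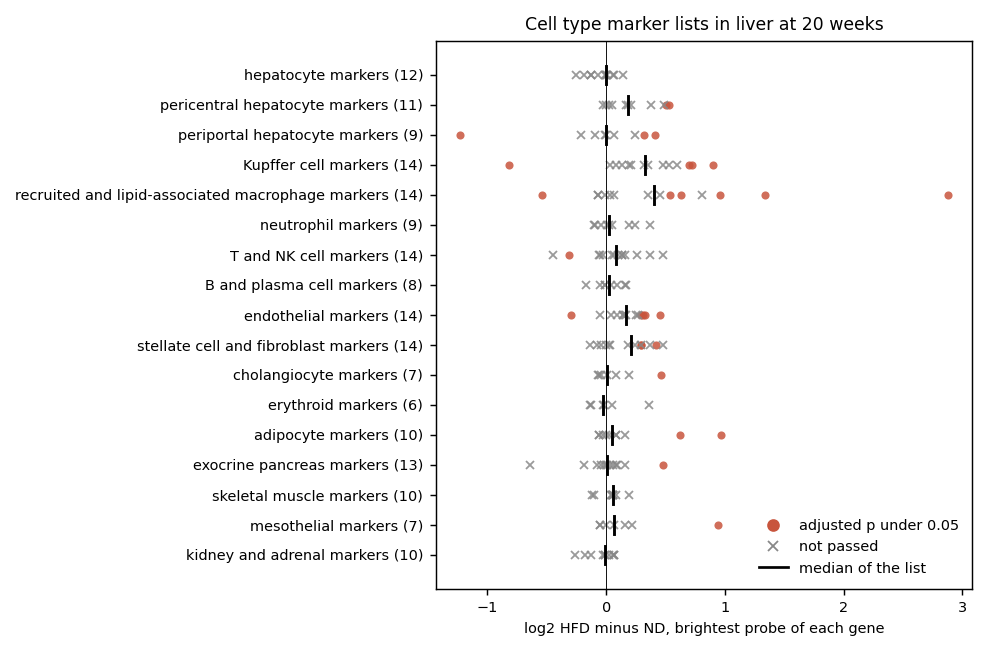
Log2 difference between HFD and ND of each measured marker gene of 17 cell types at 20 weeks, with red points for genes at an adjusted p under 0.05, grey crosses for the others, and a black line at the median of the list. Medians lie highest for recruited macrophage (0.40) and Kupffer cell (0.33) markers and at 0 for hepatocyte markers.

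Markers of the remaining cell types set the frame for these values. None of the 12 hepatocyte markers passed in limma (0 higher and 1 lower unadjusted), and none of 9 neutrophil, 8 B and plasma cell, 6 erythroid, 10 skeletal muscle and 10 kidney and adrenal markers (1 and 0, 1 and 1, 1 and 0, 1 and 0, 0 and 1 unadjusted). Of 14 endothelial markers 4 rose and 1 fell, each by less than 0.5. Without the third HFD array 1 rose, without the first or the third ND array or the second HFD array 2 rose, and 0 fell without any array in turn. Among 10 adipocyte markers Cidec and Car3 rose. There were 0 rises without the second or the third ND array or the third HFD array and 1 without any of the others. The adipocyte hormone Adipoq lay near the array median, at 6.98 on the ND and 7.06 on the HFD. Krt8, a keratin that hepatocytes share with mesothelium, rose from 11.77, 11.57 and 11.56 to 12.59, 12.57 and 12.57, by 0.94 (adjusted p = 1.16e-08), and the other 6 mesothelial markers did not pass.

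Heat shock genes were higher on some ND arrays. Hspa1a, the inducible HSP70, was at 7.12, 8.40 and 9.24 on the ND and at 7.16, 7.14 and 6.82 on the HFD. The first ND array lay among the HFD arrays, the third was the highest, and this was the called probe whose groups overlapped (log2 fold change -1.21, adjusted p = 0.00357). Hsph1, a partner of HSP70, was at 10.57, 11.07 and 11.31 against 10.26, 10.05 and 9.54, with the same order on the ND, and fell by 1.03 (adjusted p = 0.0019). In all 5 of 19 immediate-early and stress genes fell and 0 rose (6 and 1 unadjusted in limma), with 1 fall without the third ND array and 2 without the third HFD array. The third ND array was also the highest for Hsd3b5 and Socs2 and the lowest for Cyp2b9, and whether these values move with the heat shock genes was not tested. Of 18 circadian genes none passed (0 higher and 2 lower unadjusted in limma).

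Other genes among the largest changes have roles outside these lists. Adam11, a membrane protein of the metalloprotease family without protease activity and known from neurons, was at 7.48, 7.18 and 7.08 on the ND and at 9.09, 8.89 and 9.01 on the HFD (log2 fold change 1.75, SE 0.129, adjusted p = 1.06e-12). Avpr1a, the liver's vasopressin receptor, was at 10.31, 10.92 and 10.40 against 9.20, 9.60 and 9.18 (log2 fold change -1.22, adjusted p = 1.2e-07). Tff3, a trefoil peptide of mucous surfaces, was at 7.95, 7.90 and 8.50 on the ND. On the HFD it lay just under the array median, at 6.98, 6.83 and 6.90 (adjusted p = 0.000138). These genes too were chosen among probes without overlap between diets.

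Clec2d, a ligand of an inhibitory receptor on natural killer cells, was at 12.45, 12.99 and 12.73 on the ND and at 11.11, 11.74 and 11.34 on the HFD (log2 fold change -1.33, adjusted p = 4.68e-05). Ugt1a5, a glucuronosyltransferase, was at 10.05, 9.50 and 10.01 against 8.55, 8.43 and 8.47 (log2 fold change -1.37, adjusted p = 1.67e-07). The Ugt1a genes share their 3′ exons, and a probe of Ugt1a6b was called higher by 1.00 (adjusted p = 0.000694), so that which transcript each probe reads is uncertain.

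The 20-week changes were compared with the diet effect at the other 7 weeks, each measured against its own ND arrays. Of the 98 called probes 30 were called in the same direction at 2 weeks, 48 at 4, 36 at 6, 46 at 8, 47 at 12, 65 at 16 and 54 at 24 weeks, and 0 in the opposite direction. At each week between 87 and 197 probes were called in all. Counted by probe, 15 of the 98 were called at all 7 other weeks and 14 at none of them. The test of the difference between the 20-week effect and the mean of the other weeks called 4 probes higher (0.00883% of those tested) and 3 lower (0.00663%), and 42 (0.0928%) at an adjusted p under 0.05 without the size threshold.

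Cidea had the smallest adjusted p of this test. Its diet effect was 0.09, 0.01, 0.22 and 0.83 at 2, 4, 6 and 8 weeks and 2.66, 3.61, 3.19 and 2.4 at 12, 16, 20 and 24 weeks. The gap to the mean of the other weeks was 1.78 (SE 0.225, adjusted p = 3.95e-05), and against 16 weeks alone the 20-week effect did not pass (-0.42, adjusted p = 0.772). Cyp2b13 followed a like course, with 0.33 or less up to 12 weeks and 1.55, 1.96 and 2.02 at 16, 20 and 24 weeks (gap 1.34, adjusted p = 0.038). Gstm2, a mu-class glutathione transferase, was at -0.57, -0.75, -0.54, -0.04 and -0.11 at 2, 4, 6, 8 and 12 weeks. It was at 0.69 and 0.86 at 16 and 20 weeks, with a gap of 1.02 (adjusted p = 5.59e-05). At 24 weeks its effect was 0.19 and did not pass (adjusted p = 0.573). At 20 weeks Gstm2 was at 12.63, 12.54 and 12.63 on the ND and at 13.36, 13.43 and 13.59 on the HFD, without overlap. A further Gstm2 probe gave a gap of 1.01 (adjusted p = 0.00034).

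**Figure D5:**
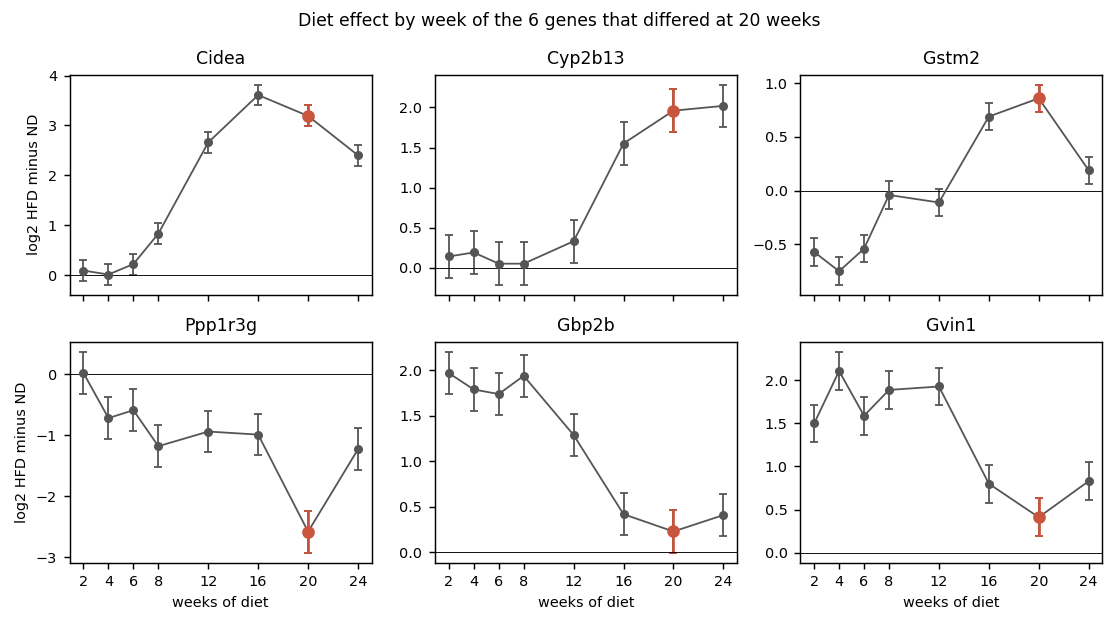
Log2 difference between HFD and ND at each week of diet for the 6 genes whose 20-week effect differed from the mean of the other 7 weeks, with 20 weeks in red and bars of 1 standard error. Cidea and Cyp2b13 are high from late weeks on, and Ppp1r3g is lowest at 20 weeks with -2.58. Gbp2b and Gvin1 lie at 1.29 to 2.11 up to 12 weeks and are lower at 16, 20 and 24 weeks. At 20 weeks they lie at 0.23 and 0.41.

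Ppp1r3g stood apart at 20 weeks on the low side. Its effect was between 0.02 and -1.23 at the other weeks and -2.58 at 20 weeks (gap -1.78, SE 0.365, adjusted p = 0.0287), though against 16 or 24 weeks alone the gap did not pass (adjusted p = 0.325 and 0.45). Gvin1 and Gbp2b, large GTPases induced by interferon, were higher on the HFD at 2 to 12 weeks, by 1.5 to 2.11 and by 1.29 to 1.97. At 20 weeks they were at 0.41 and 0.23 and did not pass (adjusted p = 0.474 and 0.775). At 16 and 24 weeks Gvin1 was at 0.8 and 0.83 and Gbp2b at 0.42 and 0.41. Against 16 or 24 weeks alone the 20-week effect did not pass in limma for Gvin1 (adjusted p = 0.804 and 0.847). The same held for Gbp2b (adjusted p = 0.936 and 0.963). Gbp2b was at 8.91, 8.67 and 8.46 on the ND and at 8.98, 8.85 and 8.90 on the HFD, with overlapping diets, and the gaps to the other weeks were -1.12 for Gvin1 (adjusted p = 0.0375) and -1.14 for Gbp2b (adjusted p = 0.0486). The calls of Cyp2b13, Gvin1 and Gbp2b against the other weeks were lost without each of the 6 arrays in turn, and that of Ppp1r3g without each but the first ND array. The gap of Gstm2 came under the size threshold without the second ND array (0.99) or the third HFD array (0.96).

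The MHC class II list had medians of 1.76, 1.91, 1.59, 2.19 and 1.41 at 2, 4, 6, 8 and 12 weeks, 0.50 at 16, 0.63 at 20 and 1.53 at 24 weeks. None of its 8 genes passed the test of the difference at 20 weeks in limma, with gaps of -0.11 to -1.07, and 7 were lower at an unadjusted p under 0.05. For the interferon list 15 of 23 genes were lower unadjusted, with a median gap of -0.46. Over all 45281 probes 3604 differed from the other weeks unadjusted in limma, in either direction. Pck1 passed the adjusted p but not the size threshold, with a gap of -0.80 (adjusted p = 0.0222).

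Set against the neighbouring weeks alone, 1 probe differed between 20 and 16 weeks (0.00221%) and 12 between 20 and 24 weeks (0.0265%). The probe at 16 weeks was that of Fabp5, whose effect was -2.0 at 16 weeks and -0.54 at 20 weeks (gap 1.46, adjusted p = 0.00203). Against 24 weeks Trem2 had the smaller rise at 20 weeks, 0.54 against 1.67 (gap -1.13, adjusted p = 0.00173). Rsad2 was at -0.63 at 20 weeks and 0.55 at 24 weeks (gap -1.18, adjusted p = 0.00652). Sterol synthesis gave the same direction at all 8 weeks, with list medians of -0.34 at 2 weeks and -0.45 to -0.82 afterwards, and no gene of the list passed the test of the difference at 20 weeks.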

How the data were processed

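Liver RNA was hybridized to Illumina MouseWG-6 v2 BeadChips. The authors extracted the signals with BeadStudio and deposited quantile-normalized log2 values, for which the submitters' processing notes name R 2.4.1. No detection p-value was used for the liver arrays, so that dim probes were marked only against the array median. Groups were taken from the labels. The 51 liver arrays (17 groups) were fitted in 1 model with limma 3.58.1 (R 4.3.3, lmFit and eBayes, 6.46 prior and 34 residual degrees of freedom), with p-values adjusted over 45281 probes. The diet effect at 20 weeks was also set against the mean effect of the other 7 weeks and against 16 and 24 weeks by contrasts in that model. The number of arrays limits the precision. The steps were tested on simulated data.

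Probes were named through the platform annotation: 34885 had 1 symbol, 18 several and 10378 none, and 34852 were matched to the gene table. Genes of 47 lists were read on their brightest probe. Genes named are the 15 symbols with the largest rises and the 15 with the largest falls past both thresholds without overlap, up to 5 in each direction against the other weeks, and list members as examples. Gstm1, Cyp2c70, Hspa1a, Hsph1, Ugt1a6b and the unnamed probe were chosen after their values were seen. The comparison and the lists were chosen with earlier results of these data known. Promoters were taken from a RefSeq table with Python 3.11.15. Alternatives were the arrays in the fit, moderation, array weights, normalization, a filter on dim probes, the counting unit, the thresholds, the t-test named in the methods, a replicate block and leaving out each array.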

Additional observations from a re-analysis of the deposited data

Results flagged for a closer look

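For 6 genes the diet effect at 20 weeks differed from the mean of the other 7 weeks by limma's test of that difference. The gap on the log2 scale was 1.78 for Cidea, 1.34 for Cyp2b13 and 1.02 for Gstm2, whose effect lay above that mean. It was -1.78 for Ppp1r3g, -1.14 for Gbp2b and -1.12 for Gvin1, whose effect lay below it. None of the 6 passed against 16 weeks alone or 24 weeks alone, where the smallest adjusted p was 0.177, for Gstm2 against 24 weeks. Against weeks 16 and 24 together 0 probes were called.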

How the results depend on the processing

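Of the 98 called probes 63 were called without each of the 6 arrays in turn, and no named gene changed direction under the alternatives run. The medians of 9 lists, none beyond 0.04 in size, changed sign 14 times, to at most 0.05. The count ranged from 78 to 105 when 1 array was left out (49 to 68 higher, 29 to 48 lower). Without a threshold on the fold it was 1261 (803 higher, 458 lower). The methods' t-test called 100 probes unadjusted (62 higher, 38 lower) and 0 (0 higher, 0 lower) after Benjamini-Hochberg adjustment, on 6 arrays alone. A limma fit of these 6 arrays alone passed more genes in many lists at an adjusted p under 0.05. The share of all genes that passed in that fit is not given here, so its list counts have no background beside them. MHC class II rises were 6 in place of 2, and matrix rises 12 in place of 7. Kupffer and stellate cell rises were each 6 in place of 3. Respiratory chain falls were 7 in place of 1, and circadian falls 2 in place of 0. Triglyceride synthesis had 3 rises and 3 falls in place of 0. Fewer passed for endothelial rises (3 in place of 4) and T and NK cell falls (0 in place of 1). The count that differed from the other weeks, 7, was 3 with an intensity trend and robust variance, 11 with array weights, 0 against weeks 16 and 24 only in limma (8 at an unadjusted p under 0.05 and over 1 log2), and 1 to 5 when 1 array was left out, lowest without ND replicate 2 or HFD replicate 3. Against 16 weeks it was 1 to 3, highest without ND replicate 1. Against 24 weeks it was 26 with array weights and 5 to 14 when 1 array was left out, lowest without HFD replicate 2. Cidea kept its call against the mean of the other 7 weeks in each of these fits, but was not called against weeks 16 and 24 only. The causes were not tested.

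The replicate numbers did not pair the arrays (correlations of deviations -0.023, 0.006 and -0.07). With them as a block 97 probes were called (60 higher, 37 lower), and Cyp2b13 (adjusted p = 0.0535) and Gbp2b (adjusted p = 0.061) no longer differed from the other weeks. Probes near the array median or near its top value understate a change. The first HFD array of 16 weeks had the lowest correlation with its group of all liver arrays. Leaving it out, a choice made after seeing the data, kept all 98 calls. That fit called 10 probes against the other weeks, 1 against 16 weeks and 17 against 24 weeks.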

Other observations

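Of 23 cell cycle genes 4 rose and 0 fell (10 and 2 at an unadjusted p under 0.05 in limma), and 2 rose without the first or the third ND array or the first or the third HFD array. Among the 4 were Mcm2, Mcm4 and Mcm5, subunits of the helicase that opens DNA for replication. Mcm5 was at 7.70, 7.72 and 7.72 on the ND and at 8.29, 8.21 and 8.31 on the HFD, a rise of 0.56 (adjusted p = 0.00128). Of 18 lysosomal genes the membrane protein Lamp1 rose by 0.53 (adjusted p = 0.00163) and the protease Ctsa fell by 0.99 (adjusted p = 2.72e-06). Of 22 complement and coagulation genes Masp1 of the lectin pathway rose by 0.40 and C8b of the membrane attack complex fell by 0.69. Among 19 genes of amino acid breakdown and the urea cycle Prodh, the proline oxidase, rose by 0.72, and Agxt and Bhmt fell by 0.46 and 0.50. None of the 19 rose without the third ND or the third HFD array, and 1 fell without the first ND array or the first or the second HFD array. In the unfolded protein response 2 of 19 genes fell, Hyou1 by 0.31 and Asns by 0.53, with 0 falls without the second HFD array and 1 without the first or the third ND array or the third HFD array.

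Few zonal markers of the liver lobule passed. Of 11 pericentral markers Gulo, an enzyme of vitamin C synthesis, and Lgr5, a receptor that strengthens Wnt signalling, rose by 0.53 and 0.50. Of 9 periportal markers Cyp2f2 and Aldh1b1 rose by 0.32 and 0.41 while Pck1 fell. Pericentral rises were 0 without the third HFD array and 1 without the third ND or the second HFD array, and periportal rises 0 without the second or the third ND array or the third HFD array and 1 without the first ND or the second HFD array. Of 7 cholangiocyte markers Sox9 rose by 0.46, of 13 exocrine pancreas markers Amy2a5 rose by 0.48, and of 14 T and NK cell markers Klrb1c fell by 0.31. The cholangiocyte count was 0 without any array but the first ND array, and the T and NK cell count 0 without any but the second ND array.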
